A study of Mus musculus with 48 samples.

Results

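The 55 genes described here encode factors that build ribosomes, and they were taken by name from the 47480 gene symbols in the count tables of stretched and non-stretched C2C12 cells. All 55 were found in both tables and all 55 passed the filter on low counts in every comparison. By their known role, 2 are catalytic subunits of RNA polymerase I (Polr1a, Polr1b), 5 belong to the small nucleolar ribonucleoproteins, or snoRNPs (Nop56, Nop58, Fbl, Dkc1, Nolc1), and 3 are abundant nucleolar proteins (Ncl, Npm1, Ddx21). A further 21 act in the small subunit processome, the particle in which the small subunit starts to form (Utp3, Utp6, Utp14a, Utp14b, Utp15, Utp18, Utp20, Nop9, Nop14, Nol6, Nol10, Noc4l, Wdr43, Wdr75, Rrp9, Heatr1, Rcl1, Imp3, Imp4, Ddx10, Tbl3). The last steps of the small subunit are served by 6 (Tsr1, Bysl, Ltv1, Nob1, Pno1, Rrp12), and assembly of the large subunit by 18 (Nmd3, Nop2, Nop16, Nol8, Nol9, Gnl2, Gnl3, Wdr12, Bop1, Pes1, Rrp1, Rrp1b, Rrs1, Noc2l, Noc3l, Mrto4, Ddx18, Ddx56).

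Ribosomes are assembled in the nucleolus, where RNA polymerase I copies the ribosomal DNA into a long precursor RNA. Small nucleolar ribonucleoproteins modify that RNA, and a large set of helicases, GTPases, methyltransferases and scaffold proteins folds it, cuts it and joins it to ribosomal proteins before each subunit is exported to the cytoplasm. Production of ribosomes is known to be high in growing and dividing cells, to be driven in part by the transcription factor Myc, and to be a step in the growth of loaded skeletal muscle.

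C2C12 is a clonal line of mouse skeletal muscle myoblasts that fuse and express muscle genes when they differentiate, so that all results describe 1 cell line. RNA was sequenced from 48 cultures in 12 groups of 4: myoblasts and differentiated cells, each stretched for 1, 3 or 6 h or kept without stretching on the same kind of flexible, collagen-coated plate. Stretching was cyclic and equal in both directions of the membrane, and the cells were washed before their RNA was taken. The labels call the molecule nuclear RNA, whereas the methods describe RNA extracted from washed cells with a column kit. In myoblasts, replicates 7 and 8 came from the experiment coded B27 and replicates 9 and 10 from B31 (1 stretched library at 1 h, replicate 9, carries a code that no other library has and was taken as B31). In differentiated cells, replicates 7 and 8 came from B25 and replicates 9 and 10 from B28, except that the stretched group at 1 h held replicates 4, 7, 8 and 9, of which replicate 4 alone came from B17. No experiment held both stages. Since 2 cultures of each group usually shared an experiment, p-values measure in part the spread between cultures of 1 experiment. In bulk RNA, a change in the share of cells that use a gene and a change in its RNA per cell cannot be told apart.

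The libraries held 48447318 to 77080730 counted reads, of which the 55 genes took 0.342% to 0.827%, and the lowest count of any of them in any library was 761 (Imp3). In 10 of the 55, more than 5% of the stretches of 31 bases also occur in other genes (Ddx18 65.5%, Pes1 32.4%, Npm1 29.2%, Nop56 22.4%, Fbl 20.7%, Mrto4 17.8%, Imp3 17%, Rrs1 15.8%, Wdr12 11.7% and Ncl 5.95%), so that their counts depend on how shared reads were divided. Differentiation markers summed to 20.5 to 67.1 CPM (counts scaled to the adjusted library total) in myoblasts and to 13083 to 21663 CPM in differentiated cells. The 6 markers listed for myoblasts (Myf5, Pax7, Myod1, Des, Cdh15, Vcam1) were not higher in that stage. They summed to 1149 to 1355 CPM in myoblasts and to 3486 to 4127 CPM in differentiated cells. The 12 markers of immune, endothelial, epithelial and neural cells summed to at most 18.8 CPM in any library. The 9 proliferation markers summed to between 349 and 848 CPM in differentiated cells, whose highest library was the stretched 1 h replicate 4. At 3 h of stretching 4 of these 9 rose in each stage (1 fell in myoblasts). The sum of the 9 at 3 h was 459.8 to 480.1 CPM without and 482.7 to 544.2 CPM with stretching in differentiated cells, with no overlap. In myoblasts at 3 h it was 2454 to 2602 CPM without and 2458 to 2570 CPM with stretching, which overlapped. In myoblasts at 6 h 3 of the 9 fell and 0 rose, the sum being 2490.5 to 2607 CPM without and 2263 to 2518 CPM with stretching. The part of these genes in the results was not tested.

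Most of the 55 genes rose after 3 h of stretching in each stage, by less than 1.5-fold except for Utp14b (1.67-fold in differentiated cells). A gene passed the test when its Benjamini-Hochberg adjusted p from the quasi-likelihood test of edgeR, over all genes tested, was under 0.05. In myoblasts 38 of the 55 rose and 0 fell at 3 h, and 19 rose and 3 fell at 6 h. In differentiated cells 41 rose and 0 fell at 3 h, and 36 rose and 1 fell at 6 h. None of the 55 was lower at 3 h in either stage at an unadjusted p under 0.05 in edgeR (0), and DESeq2 called 0 lower. At 1 h, 1 gene rose in myoblasts and none passed in differentiated cells. Among all genes tested, the shares that rose and fell were 16% and 15.8% in myoblasts at 3 h, 14.1% and 13.0% in myoblasts at 6 h, 10.8% and 11.4% in differentiated cells at 3 h, and 11.5% and 10.8% in differentiated cells at 6 h. The 11 genes Bysl, Ddx18, Imp4, Nob1, Nop16, Nop2, Pno1, Rrp9, Rrs1, Tsr1 and Utp14b rose in all 4 of the comparisons at 3 h and 6 h. Nop9 and Tbl3, both of the small subunit processome, passed in none. The share of all genes that rose in all 4 was not counted.

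**Figure D1:**
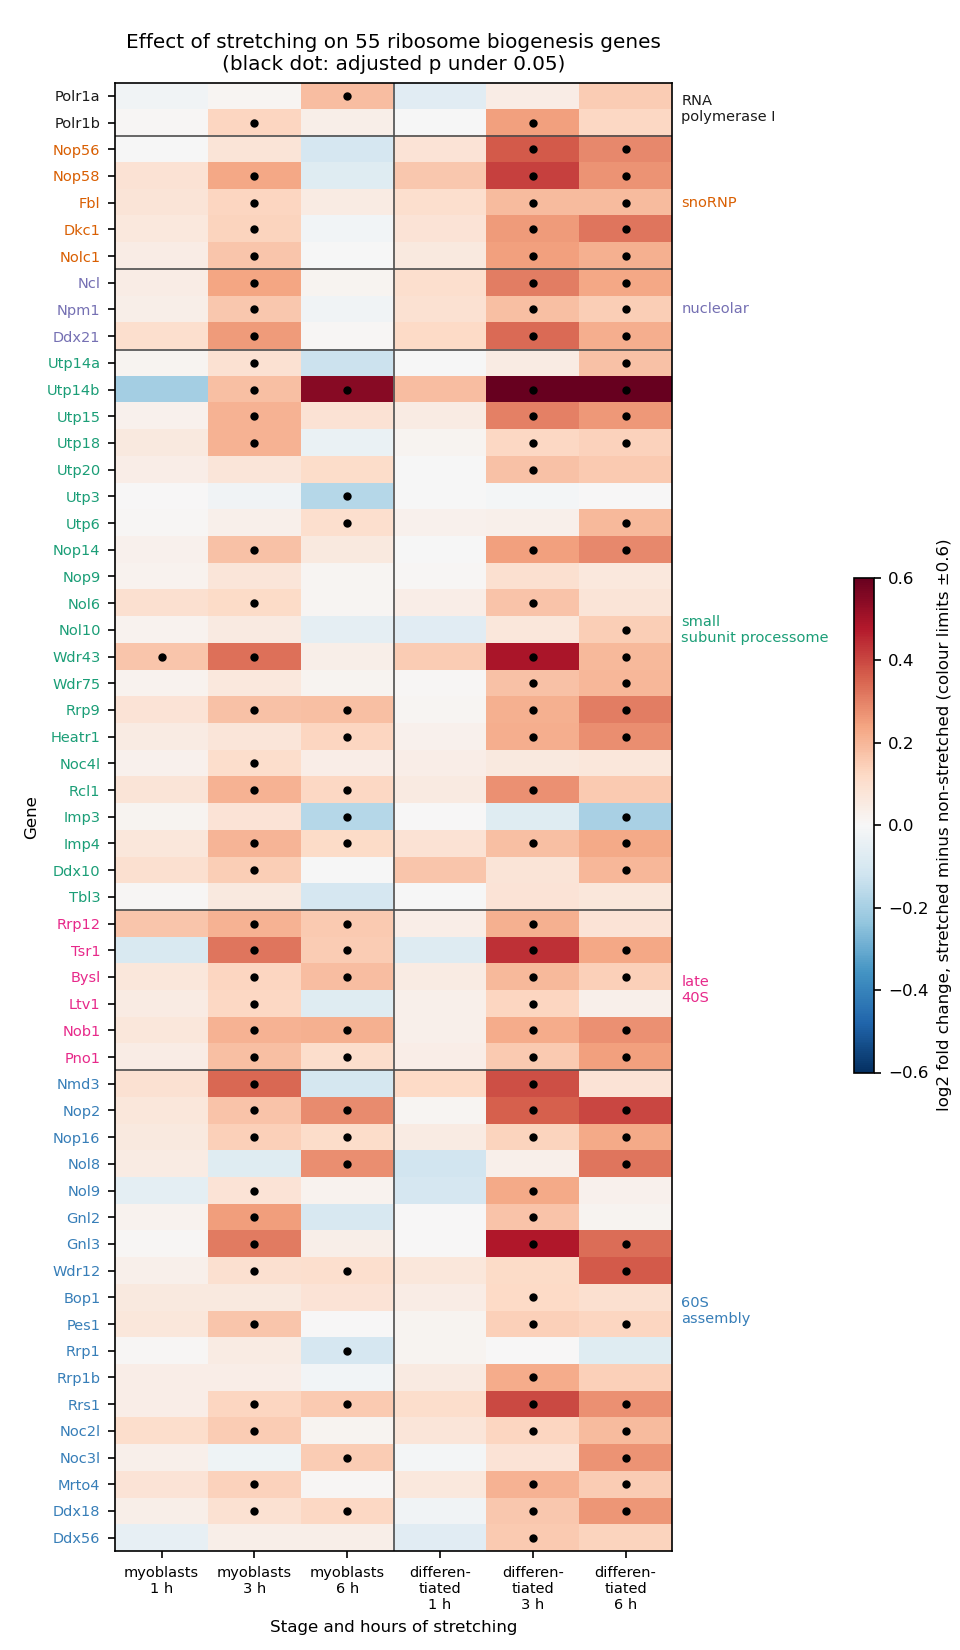
Effect of stretching on each of the 55 genes (rows, grouped by role) in the 6 comparisons of stretched with non-stretched cells (columns, 4 libraries per group). Colour gives the log2 fold change, with the scale ending at 0.6 in either direction so that Utp14b in differentiated cells lies beyond it, and a black dot marks an adjusted p under 0.05. The columns at 3 h and the column of differentiated cells at 6 h are mostly red with dots (38, 41 and 36 genes higher), whereas the columns at 1 h hold 1 dot.

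The same can be read from each library. The median of the 55 log2 deviations from the mean of the non-stretched libraries was 0.12, 0.11, 0.14 and 0.15 in the stretched myoblast libraries at 3 h, against -0.02 to 0.02 in the non-stretched ones. In differentiated cells at 3 h it was 0.18, 0.16, 0.16 and 0.24 in the stretched libraries, against -0.03 to 0.04. At 6 h it was 0.16, 0.17, 0.19 and 0.20 in stretched differentiated cells, against -0.05 to 0.08. In myoblasts at 1 h it was 0.05, 0.03, 0.02 and 0.06 in the stretched libraries, against -0.04 to 0.01. Stretched and non-stretched libraries did not overlap in these 4 comparisons, with the smallest gap in myoblasts at 1 h. Stretched myoblasts at 6 h gave -0.02, 0.05, 0.00 and 0.10, which overlapped the range of -0.03 to 0.02 of the non-stretched libraries. Within experiments B27 and B31, the median log2 fold change of the 55 genes in myoblasts at 3 h was 0.11 and 0.16 (0.13 over all 8 libraries). In differentiated cells it was 0.20 and 0.16 within B25 and B28 at 3 h (0.18 over all) and 0.17 and 0.18 at 6 h (0.19 over all). The median over all genes tested was -0.01 in myoblasts at 3 h.

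**Figure D2:**
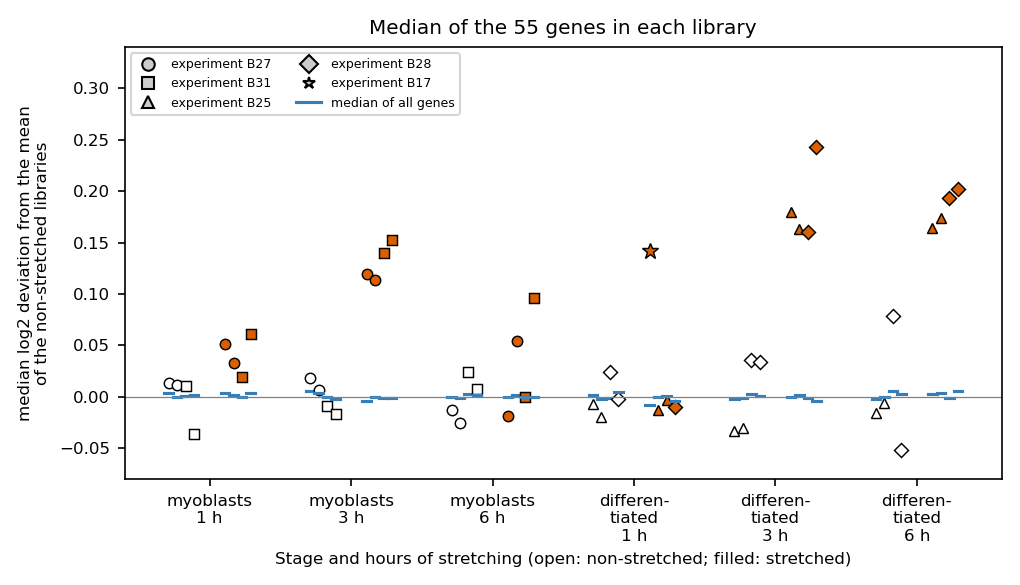
Median log2 deviation of the 55 genes from the mean of the non-stretched libraries, 1 point per library (open non-stretched, filled stretched, marker shape by experiment), for each stage and time, with the median over all genes as a short blue line. Stretched libraries lie above all non-stretched ones at 3 h in both stages, at 6 h in differentiated cells and, by a small gap (lowest stretched 0.0191, highest non-stretched 0.0132), at 1 h in myoblasts, and at 1 h in differentiated cells the single library of experiment B17 (0.142) stands above the rest.

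The first question was whether 1 h of stretching already changed these genes. In myoblasts 1 of the 55 rose, against 1.67% of all genes tested that rose and 4.24% that fell. This was Wdr43, a small subunit processome protein (chr17:71615895-71659031 on mm10, plus strand). Its level was 158, 158, 159 and 146 CPM in the non-stretched libraries (replicates 7 to 10) and 177, 176, 167 and 177 CPM in the stretched ones. Every stretched library lay above every non-stretched one, with a log2 fold change of 0.17 ± 0.04 (SE, n = 4 per group, edgeR adjusted p = 0.0184). It did not pass without stretched replicate 10 (adjusted p = 0.0682). At an unadjusted p under 0.05, 8 of the 55 were higher and 2 lower (7.71% and 11.3% of all genes), and 49 of the 55 log2 fold changes were positive (51.1% of all genes) with a median of 0.04. The count of rises was 5 without non-stretched replicate 9 (2.02% of all genes rose in that fit), 4 in 1 model of the stage (3.06%) and 3 with DESeq2 (1.59%).

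In differentiated cells at 1 h, 0 of the 55 passed in edgeR and 0 in DESeq2, 1 gene was higher and 1 lower at an unadjusted p under 0.05, and 0.193% of all genes rose and 0.470% fell. One library stood apart. Nop58, a core protein of the box C/D snoRNPs that guide methylation of ribosomal RNA, was at 83.2, 84.4, 87.4 and 86.8 CPM without stretching and at 123, 86.7, 86.0 and 86.2 CPM in stretched replicates 4, 7, 8 and 9. Only replicate 4, from experiment B17, was high. Its partner Nop56 was at 66.5, 68.3, 72.0 and 72.2 CPM without stretching and at 91.1, 65.0, 69.3 and 70.0 CPM with it, again high in that library alone. Wdr43 was at 64.2, 61.7, 63.4 and 62.2 CPM without stretching and at 82.4, 67.6, 66.4 and 63.6 CPM with it. The median deviation of the 55 genes was 0.142 in replicate 4 and between -0.012 and -0.003 in the other stretched libraries. Its proliferation markers were also the highest of the group, and the part of either in the result was not tested.

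After 3 h, ribosome biogenesis genes of every role had risen in myoblasts. The test was passed by 1 of the 2 RNA polymerase I subunits, 4 of the 5 snoRNP genes, 3 of the 3 nucleolar genes, 12 of the 21 small subunit processome genes, all 6 late small subunit factors and 12 of the 18 large subunit factors. The rises were of up to 1.27-fold, and 0 of the 38 reached the log2 fold change of 0.58 that the study asked of a changed gene.

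The largest rise was that of Nmd3, the adaptor that carries the large subunit out of the nucleus (chr3:69721985-69756373, plus strand). Nmd3 was at 71.0, 66.7, 69.0 and 65.7 CPM in non-stretched myoblasts and at 90.6, 84.0, 86.1 and 84.6 CPM after 3 h of stretching. All 4 stretched libraries were above all 4 non-stretched ones (log2 fold change 0.34 ± 0.03 SE, edgeR adjusted p = 9.77e-06). Wdr43 was at 147, 144, 143 and 141 CPM without stretching and at 184, 179.9, 178 and 181 CPM with it. The 2 groups were far apart and the 4 values of each close together, with a log2 fold change of 0.33 ± 0.02 (SE, adjusted p = 1.49e-06). Tsr1, a GTPase-like factor that is bound to small subunits late in their assembly (chr11:74898071-74909342, plus strand), went from 125, 125, 125 and 118 CPM to 153, 153, 151 and 158 CPM. Its log2 fold change was 0.32 ± 0.03 (SE, adjusted p = 3.97e-06), with no overlap.

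Among the abundant nucleolar proteins, Ncl, which encodes nucleolin, was at 1442, 1422, 1465 and 1422 CPM in non-stretched myoblasts at 3 h and at 1715, 1646, 1703 and 1718 CPM in stretched ones. This was a separation without overlap at 1.18-fold. Ddx21, an RNA helicase that acts in both transcription and processing of ribosomal RNA, went from between 414 and 431 CPM to between 500.1 and 509 CPM. Npm1, which encodes nucleophosmin, went from between 981 and 1034 CPM to between 1100.0 and 1169 CPM. Of the snoRNP genes, Nop58 was at 223, 224, 215 and 217 CPM without stretching and at 258, 254, 259 and 263 CPM with it, again without overlap. Nop56 was at 260.0, 265, 239.6 and 245 CPM without stretching and at 266, 261, 264 and 274 CPM with it, values that overlapped and did not pass (log2 fold change 0.08, adjusted p = 0.0944). Gnl3, which encodes the nucleolar GTPase nucleostemin, went from 114, 114, 116 and 116 CPM to 140.0, 137, 143 and 151 CPM and so showed no overlap (log2 fold change 0.31, adjusted p = 1.03e-05).

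The start sites of genes with the largest rises are shown because some hold the motif of the Myc and Max family of transcription factors and some do not. RefSeq promoters on GRCm38.p6, 300 bases from 250 before to 50 after the start, were matched for 46 of the 55 genes. The 6 letters CACGTG, an E-box that reads the same on both strands, occurred in 11 of the 46 (23.9%: Imp4, Ltv1, Nmd3, Nop2, Pes1, Pno1, Tsr1, Utp14b, Utp18, Utp20, Wdr43), against 8.09% of the 27025 genes with such a promoter. The 7 letters CCGGAAG or CTTCCGG, a match to the ETS family of factors, cannot overlap the E-box and also occurred in 11 (23.9%), against 9.93% of all genes. Of the 8 genes whose rises are given with full statistics, 5 held an E-box (Wdr43, Nmd3, Tsr1, Nop2, Utp14b) and 3 did not (Gnl3, Nol8, and Wdr12 at any of its 3 matched starts). The sequences run 5′ to 3′ along the strand of the gene, with the E-box in capitals where there is one: Wdr43 on chr17:71615965-71616264, Nmd3 on chr3:69721805-69722104, Tsr1 on chr11:74897830-74898129, Nop2 on chr6:125131633-125131932, Utp14b on chr1:78658190-78658489 and Nol8 on chr13:49652828-49653127, all on the plus strand, and Gnl3 on chr14:31019082-31019381, on the minus strand.
Wdr43: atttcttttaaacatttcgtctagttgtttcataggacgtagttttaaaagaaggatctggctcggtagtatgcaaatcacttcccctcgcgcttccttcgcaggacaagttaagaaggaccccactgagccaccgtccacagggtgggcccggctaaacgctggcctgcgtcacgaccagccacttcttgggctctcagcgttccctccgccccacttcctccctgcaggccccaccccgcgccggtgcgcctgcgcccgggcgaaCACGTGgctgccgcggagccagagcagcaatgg
Nmd3: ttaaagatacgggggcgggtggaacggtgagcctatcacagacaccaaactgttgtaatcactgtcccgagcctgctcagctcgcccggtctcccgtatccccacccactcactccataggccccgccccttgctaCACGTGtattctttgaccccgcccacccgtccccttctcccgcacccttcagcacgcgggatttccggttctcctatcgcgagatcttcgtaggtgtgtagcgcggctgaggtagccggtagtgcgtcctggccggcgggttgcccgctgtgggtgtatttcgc
Tsr1: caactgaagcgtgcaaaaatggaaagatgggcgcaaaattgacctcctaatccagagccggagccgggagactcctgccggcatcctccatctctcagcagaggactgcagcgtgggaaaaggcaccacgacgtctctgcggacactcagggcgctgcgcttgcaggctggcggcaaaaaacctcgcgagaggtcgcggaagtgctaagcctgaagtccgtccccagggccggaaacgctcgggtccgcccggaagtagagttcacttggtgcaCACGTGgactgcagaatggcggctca
Nop2: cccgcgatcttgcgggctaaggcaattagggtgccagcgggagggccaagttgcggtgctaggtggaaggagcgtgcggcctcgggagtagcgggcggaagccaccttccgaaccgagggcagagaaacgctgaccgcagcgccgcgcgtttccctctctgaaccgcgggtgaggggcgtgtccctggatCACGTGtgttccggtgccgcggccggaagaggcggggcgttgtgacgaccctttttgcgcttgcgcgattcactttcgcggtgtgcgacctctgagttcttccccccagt
Utp14b: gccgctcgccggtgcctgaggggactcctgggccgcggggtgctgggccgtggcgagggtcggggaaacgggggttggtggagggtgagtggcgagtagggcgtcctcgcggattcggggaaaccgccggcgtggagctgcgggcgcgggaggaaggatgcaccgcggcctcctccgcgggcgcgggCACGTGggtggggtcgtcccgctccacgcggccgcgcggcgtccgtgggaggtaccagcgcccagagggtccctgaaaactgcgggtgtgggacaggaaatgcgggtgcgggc
Nol8: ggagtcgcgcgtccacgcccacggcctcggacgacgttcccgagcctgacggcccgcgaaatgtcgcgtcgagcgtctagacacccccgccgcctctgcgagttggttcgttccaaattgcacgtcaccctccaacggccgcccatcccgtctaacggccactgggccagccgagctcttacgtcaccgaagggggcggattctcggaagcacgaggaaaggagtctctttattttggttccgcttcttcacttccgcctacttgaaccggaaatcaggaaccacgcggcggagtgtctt
Gnl3: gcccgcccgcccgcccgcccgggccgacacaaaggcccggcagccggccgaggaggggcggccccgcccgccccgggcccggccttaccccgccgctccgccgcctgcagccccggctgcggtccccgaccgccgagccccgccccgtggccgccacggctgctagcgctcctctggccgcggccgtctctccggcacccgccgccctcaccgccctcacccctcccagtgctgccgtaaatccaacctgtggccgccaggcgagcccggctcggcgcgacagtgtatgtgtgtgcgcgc

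The E-box began 18 bases after the start site of Wdr43 and 25 after that of Tsr1, and 60, 63 and 114 bases before those of Nop2, Utp14b and Nmd3. Of the 11 genes with the motif, 10 rose in myoblasts at 3 h, 5 in myoblasts at 6 h, 11 at 3 h and 8 at 6 h in differentiated cells. Of the 35 matched genes without it, the numbers were 22, 11, 23 and 24. These are descriptions of letters in a window, and no binding was measured. No test compared the genes with and without the motif. How many of all genes with an E-box rose was not counted, so the counts have no background. Whether Myc or Max had a part in the rises was not tested. Myc itself, at 79.7, 79.0, 74.9 and 76.8 CPM in non-stretched myoblasts at 1 h, was at 98.1, 99.0, 101 and 106 CPM in stretched ones. Its groups did not overlap (log2 fold change 0.38, adjusted p = 0.000109), and it also rose at 3 h (0.32, adjusted p = 1.16e-05), while at 6 h its log2 fold change was 0.06 (adjusted p = 0.339). In differentiated cells Myc was at 26.8, 28.01, 34.9 and 37.2 CPM without stretching at 1 h and at 139.9, 59.0, 63.7 and 65.7 CPM in stretched replicates 4, 7, 8 and 9. All stretched libraries were above all non-stretched ones, with a log2 fold change of 1.37 that did not pass (adjusted p = 0.0536). By quantitative PCR, the paper reported a significant rise of Myc in stretched differentiated cells. Myc rose at 3 h in these cells (0.45, adjusted p = 0.0224), from 27.5, 27.2, 36.3 and 34.3 CPM to 38.9, 35.9, 45.5 and 51.2 CPM in groups that overlapped, and at 6 h its log2 fold change was 0.21 (adjusted p = 0.239). Max, which encodes the partner of Myc, had its larger rises at 6 h, of 0.31 in myoblasts (adjusted p = 0.000103) and 0.33 in differentiated cells (adjusted p = 0.000363).

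Differentiated cells stretched for 3 h gave the highest number of these genes past the test, 41 of the 55. They were 1 of the 2 RNA polymerase I subunits, all 5 snoRNP genes, all 3 nucleolar genes, 12 of the 21 small subunit processome genes, all 6 late small subunit factors and 14 of the 18 large subunit factors. At 3 h 34 of the 55 rose in both stages (34 of the 38 in myoblasts, 34 of the 41 in differentiated cells), against 7.59% of the 14249 genes tested in both. Utp14b was the only one of the 55 past the log2 fold change of 0.58, which 0.890% of all genes tested reached as a rise.

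Utp14b, which encodes a small subunit processome protein, was at 44.9, 44.7, 47.5 and 48.5 CPM in non-stretched differentiated cells at 3 h and at 73.5, 75.9, 77.9 and 82.8 CPM in stretched ones. The lowest stretched library was far above the highest non-stretched one, and the rise was 1.67-fold (log2 fold change 0.74 ± 0.04 SE, edgeR adjusted p = 1.51e-05). Wdr43 was at 60.7, 62.1, 64.4 and 66.7 CPM without stretching and at 88.1, 86.6, 87.5 and 94.7 CPM with it. Its groups were again apart, with a 1.41-fold rise (0.49 ± 0.04 SE, adjusted p = 6.30e-05). Gnl3 (chr14:31012433-31019152, minus strand) was at 50.7, 50.9, 58.9 and 59.0 CPM without stretching and at 74.4, 76.9, 75.7 and 79.5 CPM with it. In the non-stretched cells the libraries of B28 were higher than those of B25, and all were below the stretched ones (0.48 ± 0.05 SE, adjusted p = 0.000303).

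Several other genes rose in the same way. Tsr1 went from 77.6, 75.8, 85.9 and 86.6 CPM to 110.0, 107, 110.1 and 114 CPM. Nmd3 went from 42.8, 42.7, 44.1 and 44.5 CPM to 57.9, 55.5, 56.4 and 57.9 CPM. Both separated the groups fully. Rrs1, a factor needed for processing of the large subunit RNA, went from 40.6, 40.4, 43.7 and 41.4 CPM to 52.7, 53.7, 53.4 and 58.7 CPM. Nop56 went from 61.8, 63.1, 74.6 and 71.7 CPM to 87.3, 89.6, 83.8 and 90.1 CPM. Ncl went from between 474 and 505 CPM to between 592 and 620.5 CPM. Polr1b, a subunit of the polymerase that transcribes ribosomal DNA, went from 35.2, 33.6, 34.7 and 35.9 CPM to 39.6, 41.3, 41.9 and 42.5 CPM, with no overlap (adjusted p = 0.000905). The other subunit, Polr1a, had a log2 fold change of 0.04 (adjusted p = 0.514).

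**Figure D3:**
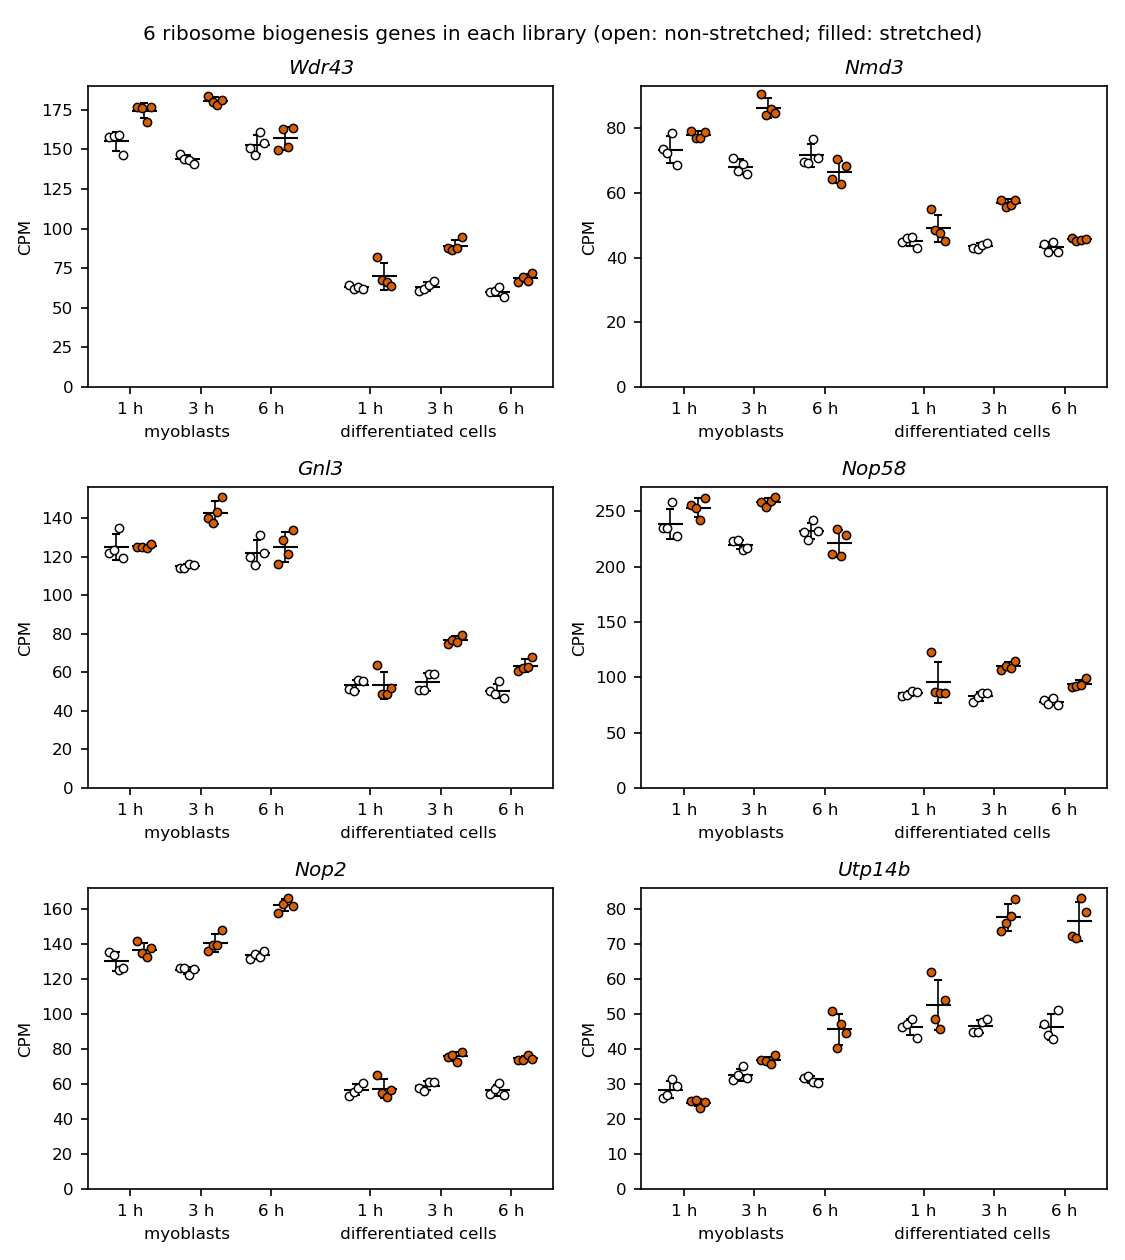
CPM of 6 of the genes in every library, open for non-stretched and filled for stretched, with the mean and SD of the 4 libraries per group as bars, by hours of stretching and stage, each axis starting at 0. Wdr43, Nmd3, Gnl3 and Nop58 separate at 3 h in both stages, while Utp14b reaches 71.6 to 82.9 CPM in stretched differentiated cells at 3 h and 6 h against at most 51.2 CPM without stretching.

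By 6 h fewer of the genes were higher in myoblasts, and some were lower, as were 3 of the 9 proliferation markers. Those that rose were 1 RNA polymerase I subunit, 0 of the 5 snoRNP genes, 0 of the 3 nucleolar genes, 6 small subunit processome genes, 5 late small subunit factors and 7 large subunit factors, and those that fell were 2 small subunit processome genes and 1 large subunit factor. Of the 38 genes higher at 3 h, 14 were also higher at 6 h, and 5 passed as higher at 6 h that had not at 3 h (Heatr1, Noc3l, Nol8, Polr1a, Utp6). How large a share of all genes was higher at both times was not counted. No gene of the 55 reached the log2 fold change of 0.58. The count of rises fell to 10 and that of falls to 1 without non-stretched replicate 7.

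Utp14b rose most, from 31.8, 32.3, 30.6 and 30.3 CPM to 50.8, 40.1, 47.1 and 44.5 CPM. The stretched libraries varied more than the non-stretched ones yet all lay above them (log2 fold change 0.55 ± 0.06 SE, edgeR adjusted p = 0.000175). Nop2, a methyltransferase of the large subunit RNA (chr6:125131909-125144753, plus strand), went from 131, 134, 133 and 136 CPM to 158, 163, 166 and 162 CPM. The groups were well apart (0.28 ± 0.03 SE, adjusted p = 8.16e-05). Nol8, a nucleolar RNA-binding protein placed with the large subunit factors (chr13:49653078-49679016, plus strand), went from 43.8, 42.7, 44.1 and 43.6 CPM to 55.3, 50.2, 53.5 and 52.2 CPM. It did not overlap either (0.28 ± 0.03 SE, adjusted p = 0.000262), whereas at 3 h its log2 fold change had been -0.07 (adjusted p = 0.229). Polr1a was at 118, 121, 117 and 109 CPM without stretching and at 147, 123, 123 and 136 CPM with it, with stretched replicates 8 and 9 close to the highest non-stretched library (0.18, adjusted p = 0.0324).

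Of the genes that fell in myoblasts at 6 h, Utp3, a small subunit processome protein (chr5:88554462-88556090, plus strand), went from 56.9, 55.1, 58.8 and 56.6 CPM to 49.9, 51.2, 49.2 and 52.1 CPM. All stretched libraries were lower, and the log2 fold change was -0.17 ± 0.03 (SE, edgeR adjusted p = 0.00259). Imp3, which binds the U3 small nucleolar RNA in the same particle (chr9:56937475-56938398, plus strand), went from 16.2, 15.5, 15.8 and 16.4 CPM to 13.3, 15.2, 13.4 and 14.9 CPM. The highest stretched library was just under the lowest non-stretched one (-0.17 ± 0.05 SE, adjusted p = 0.0317). Rrp1, a large subunit factor (chr10:78400384-78413043, minus strand), went from 159, 161, 159.8 and 164 CPM to 144, 154, 148 and 153 CPM. Its groups did not overlap (-0.10 ± 0.03 SE, adjusted p = 0.0254). Imp3 and Rrp1 each missed the threshold in 5 of 15 settings, leaving out non-stretched replicate 7 or stretched replicate 7 among them, with adjusted p up to 0.0862 and 0.0774.

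In differentiated cells 36 of the 55 genes were higher at 6 h: 0 RNA polymerase I subunits, 5 snoRNP genes, 3 nucleolar genes, 13 small subunit processome genes, 4 late small subunit factors and 11 large subunit factors. Of the 41 that were higher at 3 h, 29 were higher at 6 h too, and 7 passed at 6 h and not at 3 h (Ddx10, Noc3l, Nol10, Nol8, Utp14a, Utp6, Wdr12). The share of all genes higher at both times was not counted here either. Utp14b was at 47.2, 44.0, 42.9 and 51.2 CPM without stretching and at 72.1, 71.6, 82.9 and 79.0 CPM with it, with no overlap and a 1.65-fold rise (log2 fold change 0.72 ± 0.06 SE, edgeR adjusted p = 0.000188). It was again the only one past the log2 fold change of 0.58, which 0.518% of all genes reached as a rise.

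Nop2 went from 54.5, 57.0, 60.9 and 53.5 CPM to 73.6, 73.8, 76.5 and 74.5 CPM in these cells. The stretched values were tightly grouped above the others (0.40 ± 0.04 SE, adjusted p = 0.000363). Wdr12, part of the PeBoW complex of the large subunit together with Pes1 and Bop1 (chr1:60069785-60098645, minus strand), went from 28.5, 29.1, 32.0 and 27.5 CPM to 37.6, 35.6, 40.2 and 37.8 CPM. It had no overlap (0.37 ± 0.05 SE, adjusted p = 0.00152), while its partner Pes1 had a log2 fold change of 0.13 (adjusted p = 0.0310) and Bop1 one of 0.10 (adjusted p = 0.142). Dkc1, the pseudouridine synthase of the box H/ACA snoRNPs (chrX:75095854-75109777, plus strand), went from 30.4, 29.1, 33.0 and 29.4 CPM to 37.1, 38.1, 39.1 and 38.2 CPM. All stretched libraries were higher. Nol8 went from 32.0, 29.8, 29.8 and 31.9 CPM to 38.1, 35.3, 42.8 and 37.9 CPM, likewise without overlap. Imp3 was the only one that fell, from 17.5, 19.9, 20.1 and 18.2 CPM to 16.2, 16.4, 16.2 and 17.4 CPM. Its highest stretched value was just below its lowest non-stretched one (-0.19 ± 0.05 SE, adjusted p = 0.0254), and it missed the threshold in 6 of 15 settings, namely on leaving out replicate 8 or 9 of the non-stretched or 7, 8 or 9 of the stretched libraries and on blocking by replicate number (adjusted p = 0.0503 to 0.0789).

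How the effect moved over time was tested directly by the difference between effects in 1 model of 16 libraries. In myoblasts the effect at 6 h was lower than that at 3 h for 22 of the 55 genes and higher for 4, while among all genes tested 13.9% were lower and 14.5% higher. This comparison was added after the effects at each time had been seen. The 22 held 4 of the 5 snoRNP genes, all 3 nucleolar genes, 6 small subunit processome genes, 2 late small subunit factors and 7 large subunit factors. Nmd3 had the largest difference (-0.45, edgeR adjusted p = 2.30e-05): at 6 h it was at 69.5, 69.4, 76.8 and 70.8 CPM without stretching and at 64.2, 70.5, 62.9 and 68.3 CPM with it, in overlapping groups. Gnl2, a nucleolar GTPase of the large subunit, followed with a difference of -0.35. It had risen from between 69.4 and 71.5 CPM to between 82.3 and 85.5 CPM at 3 h, and at 6 h was at 73.5, 72.1, 73.3 and 74.9 CPM without stretching and at 63.1, 73.4, 64.9 and 73.6 CPM with it. Nop58 followed with -0.31 (adjusted p = 0.000153), being at 231.4, 224, 242 and 232 CPM without stretching at 6 h and at 211, 234, 209.5 and 229 CPM with it. In all 3, stretched replicates 7 and 9 were the lowest libraries at 6 h. The 4 genes with a higher effect at 6 h were Utp14b (0.37, adjusted p = 0.00153), Nol8 (0.35, adjusted p = 0.000206), Noc3l, which travels with large subunit precursors (0.18, adjusted p = 0.0213), and Nop2 (0.11, adjusted p = 0.0398). Without stretched replicate 7 of 3 h the count of higher effects was 2.

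In differentiated cells the same comparison gave 4 genes with a lower and 4 with a higher effect at 6 h, counts near the 6.55% and 8.74% of all genes. Those with a lower effect were Nmd3 (-0.30, adjusted p = 0.000232), Wdr43 (-0.30, adjusted p = 0.00258), Tsr1 (-0.20, adjusted p = 0.0464) and Nol9, a polynucleotide kinase of ribosomal RNA processing (-0.20, adjusted p = 0.0275). Nmd3 was at 44.3, 41.9, 44.7 and 41.8 CPM without stretching at 6 h and at 46.2, 45.3, 45.4 and 45.9 CPM with it. These were still apart, but by a few CPM only, and did not pass at that time (adjusted p = 0.0990). Those with a higher effect were Nol8 (0.29, adjusted p = 0.00767), Wdr12 (0.25, adjusted p = 0.0179), Noc3l (0.19, adjusted p = 0.0162) and Utp6 (0.16, adjusted p = 0.00830). The count with a lower effect was 2 on leaving out non-stretched replicate 8 or stretched replicate 10 of 3 h, or non-stretched replicate 8 or stretched replicate 8 of 6 h, and 7 without non-stretched replicate 10 of 6 h.

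**Figure D4:**
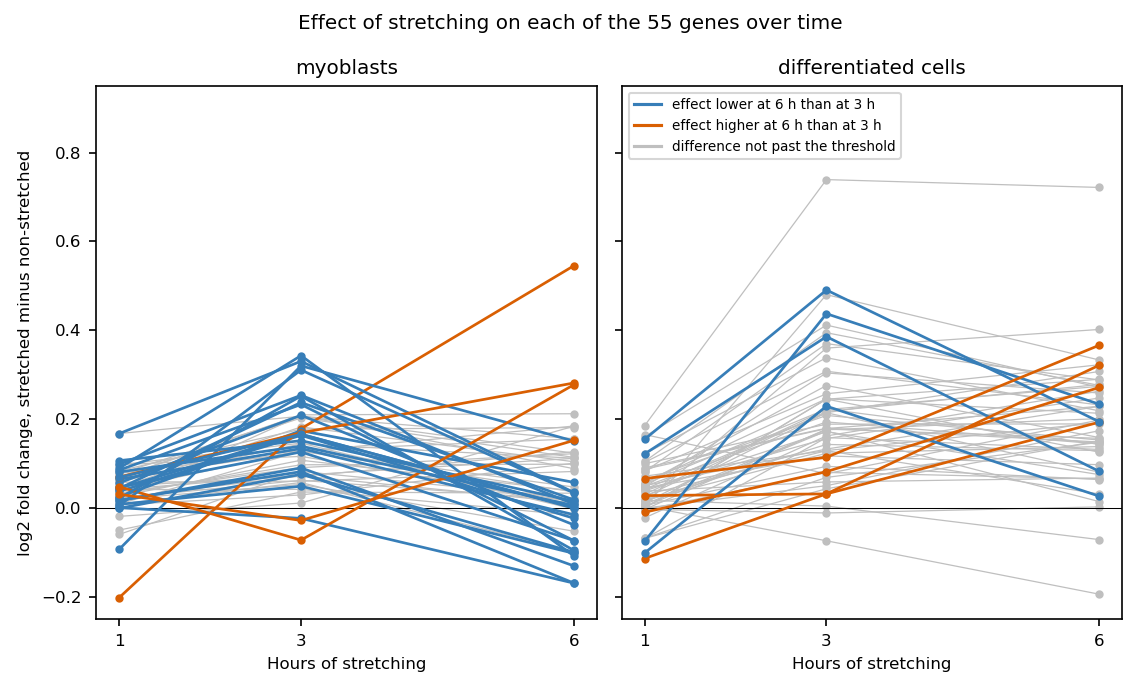
Log2 fold change of each of the 55 genes after stretching for 1, 3 and 6 h in myoblasts (left) and differentiated cells (right), 1 line per gene. Blue lines mark genes whose effect was lower at 6 h than at 3 h and orange lines those whose effect was higher (adjusted p under 0.05 of the difference): 22 and 4 in myoblasts, 4 and 4 in differentiated cells.

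Against 1 h, the effect at 6 h in myoblasts was higher for 4 genes and lower for 2, counts below the 10.7% and 7.33% among all genes. The higher ones were Utp14b (0.75), Tsr1 (0.25), Nol8 (0.23) and Nop2 (0.21), and the lower ones Nmd3 (-0.19) and Utp3 (-0.17), a count that fell to 0 or 1 on leaving out most single libraries. At 1 h Utp14b had been at 25.9, 26.8, 31.3 and 29.4 CPM without stretching and at 25.2, 25.3, 23.2 and 24.98 CPM with it, and Tsr1 at 134, 132, 133 and 125 CPM without and at 125, 123, 119 and 124 CPM with it. The stretched values lay at or below the lowest non-stretched value in both genes, and neither passed the test. In differentiated cells 11 genes had a higher effect at 6 h than at 1 h and 0 a lower one (edgeR; 5.08% and 3.61% among all genes), led by Utp14b (0.54), Nol8 (0.43) and Nop2 (0.39), while 1 was lower at an unadjusted p under 0.05 and DESeq2 called 0 lower. The count was 25 without stretched replicate 4 of 1 h, the library of experiment B17, and 27 with an added term for the experiment. Leaving out any 1 of 10 other libraries gave 6 or 7.

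Whether stretching acted differently in the 2 stages was tested by the same kind of difference, in which only contrasts within a stage enter. A larger effect here means a higher signed log2 fold change in differentiated cells, so a gene that fell only in myoblasts also counts. At 1 h, 0 of the 55 passed in edgeR, as did 0.00% of all genes in either direction (1 of the 55 was higher at an unadjusted p under 0.05, and DESeq2 called 0). At 3 h the effect was larger in differentiated cells for 3 genes and smaller for 0, against 1.13% and 0.658% of all genes: Utp14b (difference 0.55, edgeR adjusted p = 0.000141), Nop56 (0.29, adjusted p = 0.0454) and Rrs1 (0.26, adjusted p = 0.0160). Rrs1 was at 86.5, 87.0, 79.9 and 85.7 CPM in non-stretched and at 90.5, 93.0, 92.3 and 95.4 CPM in stretched myoblasts, a smaller separation than in differentiated cells. At an unadjusted p under 0.05, 13 genes had a larger and 2 a smaller effect in differentiated cells. DESeq2 called 6 larger and 0 smaller.

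At 6 h the signed effect was higher in differentiated cells for 11 of the 55 and lower for 0, against 2.39% and 2.79% of all genes. The 11 held 4 of the 5 snoRNP genes: Nop56 (0.38, adjusted p = 0.00858), Nop58 (0.34, adjusted p = 0.00507), Dkc1 (0.33, adjusted p = 0.00607) and Nolc1 (0.21, adjusted p = 0.0457). In stretched myoblasts at 6 h Nop56 was at 241, 274, 239 and 260.0 CPM, against 277, 267, 278 and 264 CPM without stretching, 3 of the 4 stretched values lying below every non-stretched one. In differentiated cells it was at 76.9, 76.2, 74.97 and 80.1 CPM with stretching and at 61.2, 61.0, 70.9 and 59.1 CPM without, all stretched values being higher. Dkc1 was at 117, 115, 125 and 117 CPM without and 115, 121, 109.9 and 123 CPM with stretching in myoblasts, which overlapped. The others were Utp14a (0.30), Gnl3 (0.29), Wdr12 (0.26), Nop14 (0.22), Nol10 (0.19), Wdr75 (0.18) and Utp3 (0.16). Utp3 had fallen in myoblasts at 6 h. In differentiated cells at that time it was at 50.1, 50.6, 51.4 and 49.7 CPM without stretching and at 51.2, 50.7, 50.1 and 50.1 CPM with it, in overlapping groups. None of the 55 had a smaller effect at an unadjusted p under 0.05 in edgeR, and DESeq2 called 0 smaller. The count of larger effects was 21 with DESeq2 and 6 when blocked by replicate number. Leaving out 1 of the 16 libraries gave 6 to 22, with 22 without non-stretched replicate 9 of differentiated cells and 6 without non-stretched replicate 9 of myoblasts.

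Utp14b shares its locus with another gene, which bears on what its counts hold. On mm10 it lies at chr1:78658038-78671512 on the plus strand, inside Acsl3 (chr1:78657825-78707743, same strand), which encodes an acyl-CoA synthetase. Of the 7679 exonic bases of Utp14b, 244 (3.18%) are also exonic in Acsl3, and its last exon of 7187 bases shares 38. The rest of its exonic bases lie in introns of Acsl3, where unspliced Acsl3 RNA could be counted as Utp14b. At 1 h in myoblasts Acsl3 was at 77.6, 79.3, 94.4 and 87.0 CPM without stretching and at 70.8, 71.6, 71.1 and 73.8 CPM with it (log2 fold change -0.24, adjusted p = 0.0287), and the stretched values of Utp14b at that time were also the lower ones. At 3 h Acsl3 was at 92.3, 91.9, 99.7 and 96.5 CPM in non-stretched myoblasts and at 84.2, 87.1, 83.2 and 91.4 CPM in stretched ones. Here Acsl3 fell while Utp14b rose (log2 fold change -0.14, adjusted p = 0.00937). In differentiated cells at 3 h Acsl3 was at 369, 375, 385 and 393 CPM without stretching and at 405, 409, 380.3 and 421 CPM with it, in overlapping groups (0.09, adjusted p = 0.121), against the log2 fold change of 0.74 of Utp14b. At 6 h both genes rose, Acsl3 by 0.17 in myoblasts (adjusted p = 0.00133) and by 0.22 in differentiated cells (adjusted p = 0.0148). Without stretching, the mean level of Acsl3 was 84.6 to 95.1 CPM in the 3 myoblast groups and 359.8 to 391 CPM in the 3 groups of differentiated cells, so that both genes were higher in the latter. How the reads of the shared bases were divided was not tested, nor was the part of unspliced Acsl3 RNA in the counts of Utp14b.

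The level of these genes without stretching was compared between the stages over the 12 non-stretched libraries of each. No experiment held both stages, so that stage and experiment cannot be told apart. Of the 55 genes 51 were lower and 3 higher in differentiated cells, in a comparison where 44.4% of all genes were lower and 45.0% higher. Past a log2 difference of 0.58 as well were 35 lower and 1 higher, against 24.9% and 27.1% of all genes. The median log2 difference of the 55 was -0.69.

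The 6 largest differences were those of 4 snoRNP genes (Nop56, Dkc1, Nop58, Fbl) and 2 nucleolar genes (Npm1, Ncl). Nop56 was at 239, 266 and 297 CPM (lowest, median and highest of 12) in myoblasts and at 60.3, 67.9 and 76.2 CPM in differentiated cells, 3.96-fold lower. Npm1 was at 985, 1043 and 1237 CPM in myoblasts and at 271, 291 and 305 CPM in differentiated cells, 3.68-fold lower. Dkc1 was at 109.9, 117 and 130.4 CPM and at 29.7, 33.3 and 35.7 CPM, 3.56-fold lower. In each of these the ranges were far apart. Ncl had a log2 difference of -1.61, Nop58 of -1.47 and Fbl, the methyltransferase of the box C/D snoRNPs, of -1.44. The large subunit factor Noc2l (-1.31) and the small subunit processome genes Utp20 (-1.28) and Wdr43 (-1.26) came next. Further down, after Utp15, Rcl1, Mrto4 and Gnl3, was Nolc1, a chaperone of snoRNPs (-1.17), and after Nop2 came Ddx21 (-1.15). In the other direction, Utp14b was at 26.1, 31.6 and 34.9 CPM in myoblasts and at 43.4, 46.9 and 52.2 CPM in differentiated cells, a 1.53-fold higher level without overlap. Imp3 (log2 difference 0.25) and Rrp12, an export factor of the small subunit (0.19), were the others that were higher, with ranges that overlapped. Rrp1 alone did not pass (0.01, adjusted p = 0.641).

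Per kilobase of exon, Npm1 was the highest of the 55 in both stages, at 397 CPM per kb in myoblasts and 108 in differentiated cells, and Ncl ranked 2 in myoblasts (145 CPM per kb) and 3 in differentiated cells (47.7). Rrp1, at 48.3 and 48.6 CPM per kb, ranked 6 in myoblasts and 2 in differentiated cells. Nop56 ranked 4 in myoblasts (65.7 CPM per kb) and 21 in differentiated cells (16.6). The lowest was Utp14b in myoblasts (4.02 CPM per kb) and Wdr12 in differentiated cells (2.50). Exon length here counts every annotated exon of a gene (11955 bases for Wdr12), not only those of the RNA that the cells made. These levels and ranks therefore depend on the annotation.

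**Figure D5:**
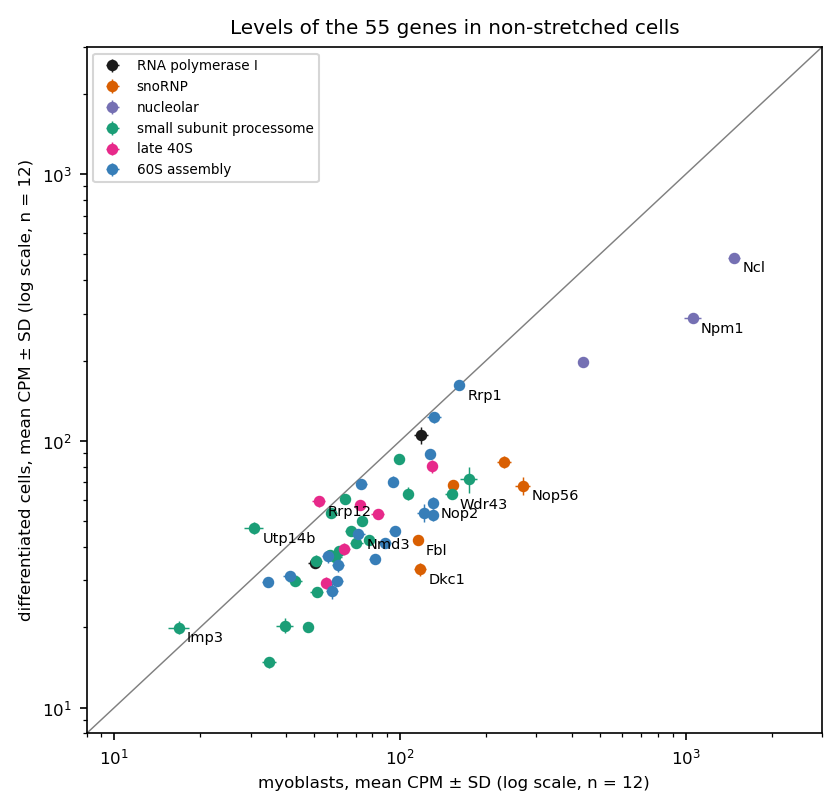
Mean CPM of each of the 55 genes in non-stretched myoblasts (horizontal axis) and non-stretched differentiated cells (vertical axis), both on log scales, with SD over 12 libraries as bars and colour by role; the line marks equal levels. Nearly all points lie below the line, Nop56, Npm1 and Dkc1 farthest (3.96-fold, 3.68-fold and 3.56-fold), and Utp14b, Imp3 and Rrp12 lie above it.

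Other genes of the pathway were counted from separate lists. Of 104 other ribosome biogenesis genes tested, 59 rose and 1 fell in myoblasts at 3 h, 20 rose and 7 fell at 6 h, 54 rose and 1 fell in differentiated cells at 3 h, and 51 rose and 2 fell at 6 h. At 1 h, 1 rose and 2 fell in myoblasts and 0 rose and 1 fell in differentiated cells. Their median log2 fold changes were 0.10 and 0.03 in myoblasts at 3 h and 6 h, and 0.12 and 0.14 in differentiated cells, beside 0.13, 0.03, 0.18 and 0.19 for the 55. Among them Ppan, a large subunit factor, had the largest rise at 3 h in the differentiated stage (0.54), and Ttf1, the factor that terminates transcription by RNA polymerase I, fell at 3 h in both stages (-0.25 in myoblasts, -0.29 in differentiated cells). The 79 genes of ribosomal proteins, which share reads with pseudogenes, were counted beside them: 50 rose and 0 fell in myoblasts at 3 h, 0 rose and 2 fell at 6 h, 8 rose and 0 fell in differentiated cells at 3 h, and 0 passed in differentiated cells at 6 h (edgeR, 0 higher and 1 lower at an unadjusted p under 0.05). The 8 rises in differentiated cells at 3 h are a count near the 10.8% of all genes that rose there. In myoblasts the effect on 26 of the 79 was lower at 6 h than at 3 h and on 0 higher (13.9% and 14.5% of all genes). No test compared the lists with each other.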

How the data were processed

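The authors aligned reads to mm10 with STAR 2.7.6a, quantified them with Salmon 1.4.0 and deposited whole-number counts per gene symbol and library, without normalization, in 1 table per stage (47480 symbols). All 48 columns were used (0 per-sample columns left out). Libraries held 48447318 to 77080730 counts, and no 2 of a group agreed within sampling noise (lowest chi-square per degree of freedom 3.06).

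The 55 genes and all gene lists were chosen with earlier results of these data known. For each comparison, stretched and non-stretched libraries (4 against 4) were compared in edgeR 4.0.16 (R 4.3.3) by its quasi-likelihood test after filterByExpr and TMM scaling, with Benjamini-Hochberg adjustment over all genes tested. A gene passed at an adjusted p under 0.05. The study's own criterion adds a log2 fold change of at least 0.58. CPM used TMM-scaled library sizes, with a prior count of 1 on the log2 scale. Differences between times or stages were interaction terms over 16 libraries, and the level comparison used 24 non-stretched libraries with time as a covariate. The comparison of 6 h with 3 h was added after the effects of stretching had been seen. Scripts were tested on simulated data. Full statistics are given for the 3 largest rises and the 3 largest falls among the genes that passed in a comparison (mean of at least 100 counts, groups not overlapping) and for genes past 0.58. Of the other lists, Myc, Max and the largest changes are named. Shared stretches of 31 bases were counted on GENCODE transcripts of mm10. Promoters are those of RefSeq on GRCm38.p6.

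Alternatives were DESeq2 1.42.0, RLE factors, other filters on low counts, 1 model per stage, an experiment term, a replicate block, single experiments, the fold criterion and leaving out each library.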

Additional observations from a re-analysis of the deposited data

Results flagged for a closer look

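In 6 of the 46 groups of 4 tested for a library apart from the rest, 1 library stood out, and chance gives about 1 in 20. The median deviation of the 55 genes was -0.0362 in non-stretched myoblasts at 1 h, replicate 10, below the other 3, and 0.142 in stretched differentiated cells at 1 h, replicate 4, above the other 3. Wdr43 was low at 1 h in non-stretched myoblast replicate 10 (146 CPM) and stretched replicate 9 (167 CPM), Tsr1 was low at 3 h in non-stretched myoblast replicate 10 (118 CPM), and Imp3 was high at 6 h in stretched differentiated replicate 10 (17.4 CPM).

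Effects that differed between times or stages by an interaction test in edgeR were as follows. In myoblasts, 4 genes had a higher and 2 a lower effect at 6 h than at 1 h (counts below the 10.7% and 7.33% of all genes), with differences on the log2 scale of 0.75 for Utp14b, 0.25 for Tsr1, 0.23 for Nol8, -0.19 for Nmd3 and -0.17 for Utp3. Against 3 h, 4 were higher and 22 lower (14.5% and 13.9% of all genes), with 0.37 for Utp14b, 0.35 for Nol8, 0.18 for Noc3l, -0.45 for Nmd3, -0.35 for Gnl2 and -0.31 for Nop58. In differentiated cells, 11 were higher at 6 h than at 1 h (5.08% of all genes), with 0.54 for Utp14b, 0.43 for Nol8 and 0.39 for Nop2. Against 3 h, 4 were higher and 4 lower (counts near the 8.74% and 6.55% of all genes), with 0.29 for Nol8, 0.25 for Wdr12, 0.19 for Noc3l, -0.30 for Nmd3, -0.30 for Wdr43 and -0.20 for Tsr1. The signed effect was higher in differentiated cells than in myoblasts for 3 genes at 3 h (1.13% of all genes, with Utp14b 0.55, Nop56 0.29, Rrs1 0.26). At 6 h it was higher for 11 (2.39% of all genes), led by Nop56 (0.38), Nop58 (0.34) and Dkc1 (0.33).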

How the results depend on the processing

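No gene named with full statistics changed direction. The median log2 fold change of the 55 genes in differentiated cells at 1 h (0.0309) was -0.00259 without stretched replicate 4, -0.0253 within B28, -0.0019 with the experiment term and -0.00407 with the replicate block. Of the values of named genes, 272 kept their side of the threshold and 17 lost it: Wdr43 in myoblasts at 1 h without stretched replicate 10, and Imp3 and Rrp1 in the settings given above. In myoblasts at 1 h, the count of rises was 2 with RLE factors, 3 with DESeq2, 4 in 1 model of the stage and 0 with the fold criterion, and that of falls 1 with no filter, 1 with DESeq2 and 2 in 1 model. In differentiated cells at 1 h, 1 model gave 1 rise. With the fold criterion, 0 genes passed in myoblasts at 3 h and 0 in either direction at 6 h, 1 rose in differentiated cells at 3 h, and 1 rose and 0 fell at 6 h. The median log2 fold change was 0.106 within B27 and 0.165 within B31 in myoblasts at 3 h, and 0.173 within B25 in differentiated cells at 6 h. The larger effects in differentiated cells at 3 h numbered 6 with DESeq2 and 6 with the experiment as a covariate, and those at 6 h 21 with DESeq2. The effects larger at 6 h than at 1 h in differentiated cells numbered 27 with the experiment as a covariate, with 1 smaller. The cause of these shifts was not tested.

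Stretched and non-stretched libraries of 1 replicate number were not treated as pairs in the main test. Over 23 such pairs, correlations of deviations ran from -0.0450 to 0.152, 6 were over 0.1 and in 7 both libraries matched each other best. Whether the numbers mark pairs was not tested. With the replicate block, falls numbered 0 in differentiated cells at 6 h, smaller effects at 6 h than at 1 h 0 in myoblasts, larger ones 27 (and 1 smaller) in differentiated cells, and larger effects in differentiated cells at 6 h 6.

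Leaving out 1 library at a time gave, in myoblasts, 0 to 5 rises and 0 to 1 falls at 1 h (0 rises without stretched replicate 10, 5 without non-stretched replicate 9, 1 fall without non-stretched replicate 7), 34 to 38 and 0 to 1 at 3 h (1 fall without stretched replicate 10), and 10 to 17 and 1 to 5 at 6 h (1 fall without replicate 7 or 10 of the non-stretched or 7 or 9 of the stretched libraries, 5 without stretched replicate 8). In differentiated cells it gave 36 to 41 rises at 3 h, and 30 to 41 rises and 0 to 1 falls at 6 h. The median log2 fold change ranged from 0.0289 to 0.0551 at 1 h, 0.124 to 0.146 at 3 h and 0.0177 to 0.0484 at 6 h in myoblasts, and from -0.00259 to 0.0553, 0.168 to 0.200 and 0.173 to 0.202 in differentiated cells. Effects at 6 h against 1 h gave 4 to 6 higher and 0 to 5 lower in myoblasts and 6 to 25 higher in differentiated cells. The lower ones in myoblasts numbered 5 without non-stretched replicate 9 of 1 h and 4 without stretched replicate 8 of 6 h, and 0 or 1 without any other except non-stretched replicate 8 of 6 h and stretched replicate 10 of 6 h. The higher ones in differentiated cells numbered 6 or 7 without any of replicates 7 and 8 (non-stretched) and 7, 8 and 9 (stretched) of 1 h, and 7, 8 and 10 (non-stretched) and 9 and 10 (stretched) of 6 h. Against 3 h they gave 2 to 5 higher and 19 to 27 lower in myoblasts, and 4 higher and 2 to 7 lower in differentiated cells. Larger effects in differentiated cells numbered 2 to 6 at 3 h (6 without differentiated replicate 9, non-stretched or stretched) and 6 to 22 at 6 h. The latter was 6 or 7 without replicates 9 and 10 (non-stretched) or 7 and 9 (stretched) of myoblasts, or 7, 8 and 10 (non-stretched) or 10 (stretched) of differentiated cells, each left out alone. The changes described are mostly under 1.5-fold, and 4 libraries per group from 2 or 3 experiments limit what smaller ones could be called.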
